A study of Mus musculus with 2 samples.

Results

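The genes described here are 8 genes of the major histocompatibility complex (MHC) class I presentation pathway. They were chosen by name, not by a cut on their values, though with earlier results of these data known. The heavy chain genes are H2-K1, H2-D1 and H2-T23, and the light chain gene is B2m. The others are the peptide transporter genes Tap1 and Tap2, the loading factor gene Tapbp, and Nlrc5. All 8 symbols matched a row of the gene tables, which hold 69691 rows, 21474 of them annotated as protein-coding. Sequencing was of total RNA from granulocyte-monocyte progenitors (GMP), the bone marrow precursors of neutrophils and monocytes. The mice were male adult C57BL/6J animals of 5 to 6 weeks, with no treatment or genetic change named in the labels. There was 1 group of 2 libraries, replicate 1 and replicate 2, each from a pool of 100 cells with added spike-ins. The labels number the libraries as biological replicates 1 and 2. They also give both libraries 1 donor identifier and do not state that they came from separate animals. Every SD below therefore describes these 2 libraries alone and may be technical, and no test between groups was possible.

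Class I molecules display fragments of a cell's own proteins at its surface, where CD8 T cells and natural killer cells read them. Peptides cut by the proteasome are pumped into the endoplasmic reticulum by the TAP transporter, and tapasin holds an empty heavy chain and its beta-2-microglobulin partner beside that transporter until a peptide fits. Nlrc5 encodes a transactivator that acts with promoter-bound factors at class I genes, and interferons raise the pathway in most cell types.

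Replicate 1 held 40509954 expected counts and replicate 2 held 35675702. The label was checked against marker genes. Levels are in TPM, scaled by transcript length and by the library total. Of 11 GMP markers, 11 were at 1 TPM or more in both libraries, against 45.6% of all protein-coding genes. They were led by Mpo at 6332 and 6602 TPM in replicates 1 and 2. Of markers of other cells, 4 of 6 B cell genes and 6 of 7 T or NK cell genes had 0 counts in both libraries. The members above 1 TPM were Cd79b, at 25.8 and 25.4 TPM in replicates 1 and 2, and Nkg7, at 273 and 260 TPM. These 2 genes made up nearly all of the sums of their lists. Summed macrophage markers stood at 6.48 and 8.07 TPM in replicates 1 and 2, and dendritic cell markers at 2.56 and 6.67 TPM. Most of the dendritic cell sum was Flt3, at 2.31 and 5.95 TPM. Siglech, Ly6d and Clec9a had 0 counts in both libraries. Erythroid markers summed to 2.38 and 2.91 TPM, early progenitor markers to 6.45 and 6.64 TPM and endothelial or stromal markers to 0 and 0.2 TPM. Late neutrophil markers differed most, summing over 8 genes to 115 TPM in replicate 1 against 20.9 TPM in replicate 2. Of the 7 at a mean of 1 TPM or more, 6 were over 2-fold apart, against 11.8% of such protein-coding genes. Of these 6, 5 were lower in replicate 2 and Mmp8 was higher there, at 1.07 and 2.24 TPM in replicates 1 and 2. In pools of cells, fewer cells of a type and less RNA per cell cannot be told apart.

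The 3 heavy chains are closely related, and the deposited values depend on telling their reads apart. The second exon, which encodes the alpha 1 domain that forms a wall and part of the floor of the peptide groove, is 270 bases long in the leading coding transcript of each. The first 120 of its bases are printed from the GENCODE M21 transcripts (GRCm38) to show where the 3 genes can be distinguished. Capitals mark positions at which at least 1 of the 3 differs from the others.
H2-K1, chr17:33999884-34000003, minus strand: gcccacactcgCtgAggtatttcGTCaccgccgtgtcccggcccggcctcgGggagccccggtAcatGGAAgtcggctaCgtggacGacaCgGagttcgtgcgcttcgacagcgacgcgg
H2-D1, chr17:35263379-35263498, plus strand: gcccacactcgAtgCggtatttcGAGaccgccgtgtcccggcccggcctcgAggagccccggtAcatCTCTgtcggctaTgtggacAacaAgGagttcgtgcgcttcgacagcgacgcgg
H2-T23, chr17:36032303-36032422, minus strand: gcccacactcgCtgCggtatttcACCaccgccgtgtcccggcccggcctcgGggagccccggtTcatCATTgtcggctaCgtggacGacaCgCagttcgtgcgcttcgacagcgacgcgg

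In this stretch 15 positions differ, and in the whole exon 50 do. Over exon 2, H2-K1 and H2-D1 differed at 24 bases (91.1% identity), H2-K1 and H2-T23 at 36 (86.7%), and H2-D1 and H2-T23 at 45 (83.3%). Over exon 3, which encodes the other groove domain, alpha 2, the identities were 88.0%, 70.7% and 69.2% in the same order of pairs. Exon 4 encodes the conserved alpha 3 domain that contacts the CD8 coreceptor, and there the identities were 96.0%, 95.3% and 96.4%. The classical pair therefore differed by 33 of 276 bases in exon 3 and by 11 of 276 in exon 4.

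Longer stretches are mostly distinct. Of the 100-base windows of the leading coding transcript, 100% were found in no other gene for H2-K1, 95.4% for H2-D1 and 92.7% for H2-T23. The windows that H2-D1 shared lay mostly in H2-Q1, a gene with 0 counts in both libraries, and those of H2-T23 mostly in Gm7030. The values of H2-D1 and H2-T23 are thus uncertain by whatever part of those reads was assigned elsewhere. The authors' quantification put the posterior SD of the count of H2-D1 at 2.78 and 4.56 in replicates 1 and 2, on 7084 and 7713 expected counts. For H2-T23 it was 1.2 and 3.23 in the same order, on 985 and 988 expected counts. H2-K1 had a posterior SD of 1.85 and 0, on 8229 and 9268 expected counts. Its count in replicate 1 was thus not free of this uncertainty, although no window of its leading coding transcript was shared. For B2m, Tap1, Tap2 and Nlrc5 all windows were unique, and for Tapbp 99.9% were.

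All 8 genes were expressed in both libraries. At 1 TPM or more in both stood 8 of 8 genes, against 45.6% of the 21474 protein-coding genes. The median of their mean TPM was 30.4, against 0.55 over all protein-coding genes and 13.3 over the 10278 with a mean of 1 TPM or more. The lowest of the 8, Nlrc5, lay above 74.0% of protein-coding genes. Together they summed to 1519 and 1491 TPM in replicates 1 and 2, and most of that was B2m.

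**Figure D1:**
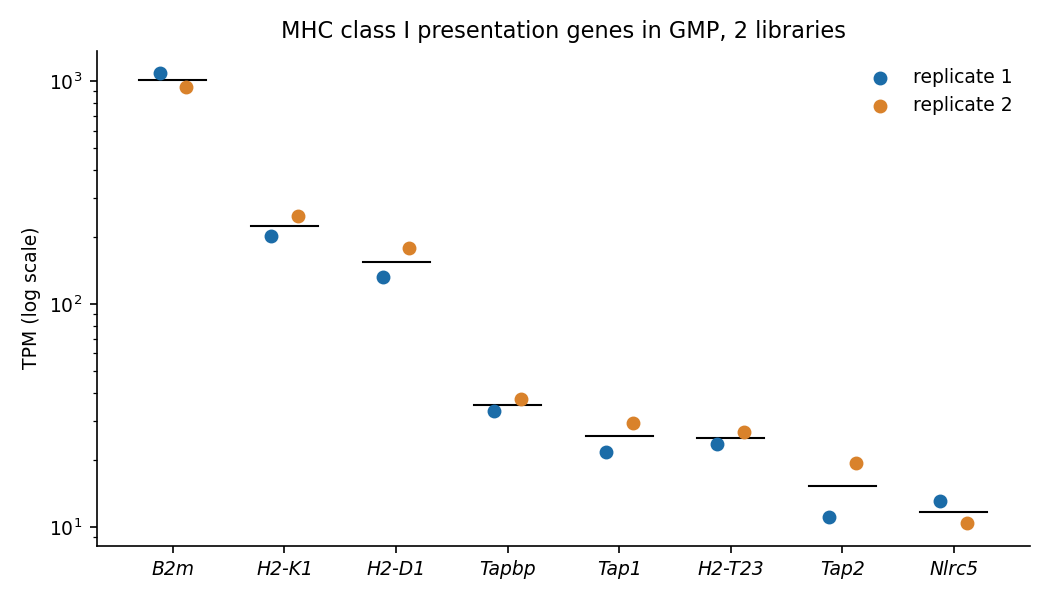
TPM of the 8 class I presentation genes (log axis) in replicate 1 and replicate 2, ordered by mean; each point is 1 library and the black line the mean of both. B2m lies at 1084 and 941 TPM, H2-K1 and H2-D1 between 132 and 248 TPM, and the other 5 genes below 38 TPM.

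Among the heavy chains, the classical genes were far above the non-classical one. H2-K1 (ENSMUSG00000061232, chromosome 17, 33996017 to 34000347, minus strand), which encodes the classical heavy chain K, had 201 and 248 TPM in replicates 1 and 2, a mean of 225 ± 33.7 TPM (SD, n = 2). Its mean ranked 258 among protein-coding genes. H2-D1 (ENSMUSG00000073411, chromosome 17, 35262730 to 35267499, plus strand), the classical heavy chain D, was at 132 and 178 TPM in the same order, a mean of 155 ± 32.8 TPM, ranking 378. In both libraries H2-K1 was the higher, 1.53 times H2-D1 in replicate 1 and 1.40 times in replicate 2, and the ranges of the 2 genes did not overlap.

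H2-T23 (ENSMUSG00000067212, chromosome 17, 36029773 to 36032855, minus strand) encodes Qa-1, a non-classical heavy chain that presents mainly leader peptides of other class I chains to the CD94 and NKG2 receptors. Its levels were 23.4 and 26.8 TPM in replicates 1 and 2, a mean of 25.1 ± 2.36 TPM (SD, n = 2). H2-K1 exceeded it 8.57 times in replicate 1 and 9.28 times in replicate 2. The antisense gene A930015D03Rik covers all 3083 bases of H2-T23 at 2.22 and 2.96 TPM, and the sources used here do not state whether counting used strand.

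B2m (ENSMUSG00000060802, chromosome 2, 122147686 to 122153083, plus strand), the light chain common to all class I molecules, was the highest of the 8. It stood at 1084 and 941 TPM in replicates 1 and 2, a mean of 1013 ± 101 TPM (SD, n = 2), ranking 96 among protein-coding genes. Its level exceeded the sum of the 3 heavy chains 3.05 times in replicate 1 and 2.08 times in replicate 2. Beta-2-microglobulin also pairs with other class I-like chains, which are described further on. Patl2, which overlaps B2m on the opposite strand, had 0 counts in both libraries.

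The transporter genes were lower. Tap1 (ENSMUSG00000037321, chromosome 17, 34187553 to 34197225, plus strand) had 21.8 and 29.2 TPM in replicates 1 and 2, a mean of 25.5 ± 5.25 TPM (SD, n = 2). Tap2 (ENSMUSG00000024339, chromosome 17, 34203527 to 34216321, plus strand) was at 11.1 and 19.4 TPM in the same order, a mean of 15.2 ± 5.84 TPM. The 2 encode the subunits of 1 transporter, and Tap1 was above Tap2 in both libraries, 1.96 times in replicate 1 and 1.51 times in replicate 2. On transcripts annotated as protein-coding, described further on, the ratio was 3.12 in replicate 1 and 6.71 in replicate 2. The size of the ratio and the order of the libraries thus depended on which transcripts were counted. Gm20496 and Gm15821 overlap Tap2 on the opposite strand over 1923 and 3148 bases. Gm20496 had 8 and 0 expected counts in replicates 1 and 2, and Gm15821 had 0 and 8.

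Tapbp (ENSMUSG00000024308, chromosome 17, 33915899 to 33929292, plus strand), which encodes tapasin, had 33.2 and 37.7 TPM in replicates 1 and 2, a mean of 35.4 ± 3.18 TPM (SD, n = 2). Relative to the sum of Tap1 and Tap2 it stood at 1.01 in replicate 1 and 0.776 in replicate 2 by gene TPM, and at 1.81 and 1.72 on coding transcripts alone. The annotated span of Zbtb22, a gene on the same strand at 5.70 and 10.6 TPM, overlaps that of Tapbp over 3422 bases. Of the windows of the leading coding transcript of Tapbp, 99.9% were found in no other gene, as given above. Gm19412 overlaps Tapbp on the opposite strand over 1207 bases, with 0 and 18 expected counts in replicates 1 and 2.

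Nlrc5 (ENSMUSG00000074151, chromosome 8, 94434356 to 94527272, plus strand), the class I transactivator, had 13.04 and 10.4 TPM in replicates 1 and 2, a mean of 11.7 ± 1.87 TPM (SD, n = 2), the lowest of the 8. In the order B2m, H2-K1, H2-D1, Tapbp, Tap1, H2-T23, Tap2 and Nlrc5, neighbours did not overlap between libraries except in 2 places. Tap1 and H2-T23 overlapped, and so did Tap2 and Nlrc5. The gene 9330175E14Rik lies across 748 bases of Nlrc5 on the opposite strand, with 31 and 157 expected counts in replicates 1 and 2.

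By gene TPM, none of the 8 differed over 2-fold between the libraries. The count was 0 of 8, against 11.8% of the 10278 protein-coding genes with a mean of 1 TPM or more, and 6 of 8 were higher in replicate 2, against 54.6% of those genes. On the log2(TPM + 1) scale, replicate 2 minus replicate 1 had a median of 0.25 over the 8 genes and 0.04 over the 10278. The median size of the difference, without its sign, was 0.30 for the 8 genes and 0.29 for the 10278.

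**Figure D2:**
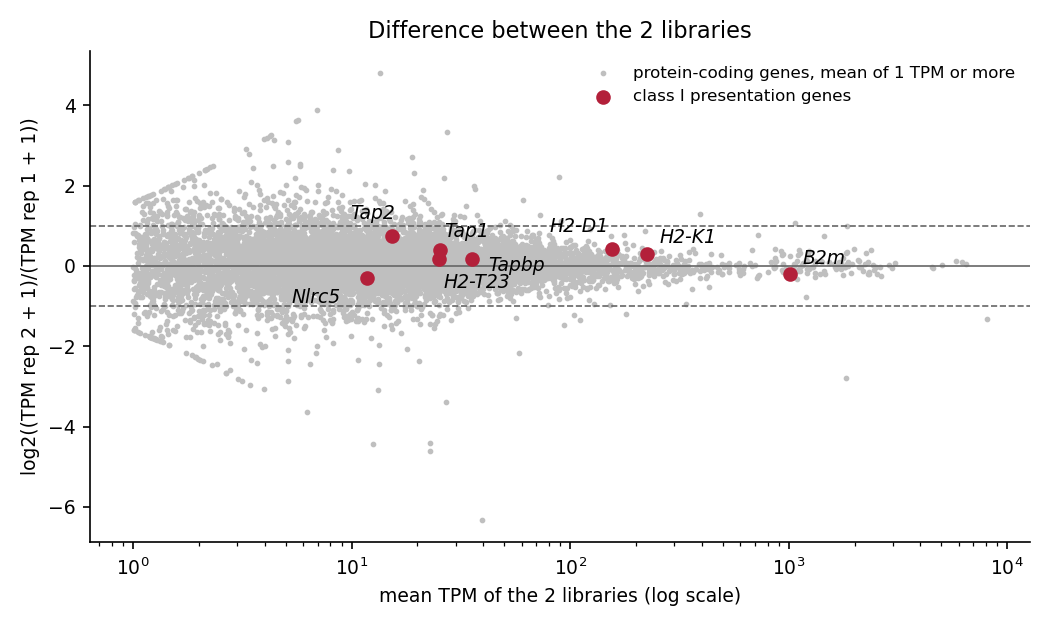
Mean TPM of the 2 libraries (log axis) against the log2 ratio of replicate 2 to replicate 1 with 1 TPM added, for protein-coding genes with a mean of 1 TPM or more (grey) and the 8 class I presentation genes (red). The dashed lines mark a ratio of 1 on the log2 scale in either direction, and the 8 genes lie between -0.30 for Nlrc5 and 0.75 for Tap2.

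Tap2 was furthest apart. Its 886 expected counts in replicate 1 and 1276 in replicate 2 correspond to 21.9 and 35.8 CPM (counts scaled by the library total, not divided by length). The CPM ratio of replicate 2 to replicate 1 was 1.64, with an exact 95% interval of 1.50 to 1.78 that covers counting error only. The same ratio was 1.28 (1.24 to 1.32) for H2-K1, 1.24 (1.20 to 1.28) for H2-D1 and 1.24 (1.16 to 1.33) for Tap1. It was nearer 1 for H2-T23, at 1.14 (1.04 to 1.25), and for Tapbp, at 1.12 (1.06 to 1.18).

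B2m went the other way, with 22279 expected counts in replicate 1 and 17338 in replicate 2 and a CPM ratio of 0.884 (0.866 to 0.901). Nlrc5 changed with the unit. Its TPM ratio was 0.798, while its CPM was 27.0 in both libraries, a ratio of 1.00 (0.918 to 1.09). The effective length by which its counts were divided was 2851 bases in replicate 1 and 3536 bases in replicate 2.

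The edgeR trend, which gives the usual spread between these libraries for genes of similar abundance, put the biological coefficient of variation at a median of 0.143 for the 8 genes. It ran from 0.127 for H2-D1 to 0.191 for H2-T23. The libraries also differed in late neutrophil markers, with summed levels of 115 and 20.9 TPM, and the part of that difference in the ratios of the 8 genes was not tested.

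The gene levels rest on different kinds of transcript. The annotation holds 41 transcripts of the 8 genes, and 20 of them took 10% or more of their gene's TPM in at least 1 library. The share on transcripts annotated as protein-coding was 100% for B2m, 98.8% for H2-D1, 88.3% for Tapbp, 88.2% for H2-K1, 85.6% for H2-T23, 64.6% for Nlrc5, 56.9% for Tap1 and 24.4% for Tap2, each the mean of 2 libraries. The median of 10203 protein-coding genes at this level was 97.0%, and 6 of the 8 lay under it. Of these 10203 genes, 39.8% had a lower share than Tapbp, 39.7% than H2-K1 and 37.1% than H2-T23, which thus lay not far below the middle. For Nlrc5, Tap1 and Tap2 the percentage was 20.2%, 16.02% and 3.97%. For B2m and H2-D1, above the median, it was 54.4% and 52.5%. The 10203 genes were not limited to those with more than 1 transcript. As background, total RNA includes unspliced and partly spliced RNA, which transcripts annotated with a retained intron can collect.

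**Figure D3:**
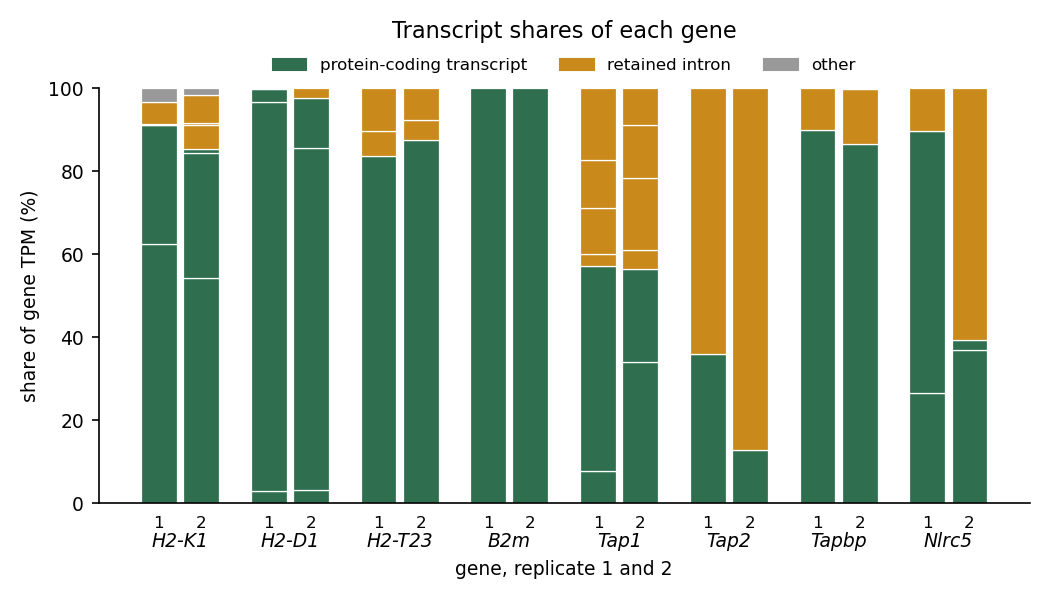
Share of each gene's TPM (percent) on its annotated transcripts in replicate 1 and replicate 2, coloured by transcript type, with white lines between transcripts. B2m has 1 transcript; retained-intron transcripts hold 63.9% and 87.3% of Tap2, and in Nlrc5 they hold 10.2% in replicate 1 and 60.6% in replicate 2 (32.3% and 57.4% by posterior mean).

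For Tap2 a retained-intron transcript led in both libraries. Tap2-202 had 7.09 and 16.9 TPM in replicates 1 and 2, and the full coding transcript Tap2-201 had 4 and 2.46 TPM in the same order. The 2 transcripts moved in opposite directions, so the higher Tap2 of replicate 2 lay in the retained-intron transcript, and the coding ratio was 0.615. Of the 100-base windows of Tap2-202, 89.6% also occur in Tap2-201. In Tap2's share on coding transcripts, 3.97% of the 10203 genes were lower.

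Tap1 and Nlrc5 had a different leading transcript in each library. This was 2 of the 7 genes with more than 1 transcript, against 32.1% of 7593 such protein-coding genes. In Tap1, the coding transcript Tap1-206 led in replicate 1 with 49.4% and held 22.5% in replicate 2, while Tap1-201, also coding, held 7.84% in replicate 1 and led with 34.05% in replicate 2. Both together came to 12.5 and 16.5 TPM. Retained-intron transcripts held 42.7% and 43.5% of Tap1, nearly the same in both libraries.

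In Nlrc5, the short coding transcript Nlrc5-202 took 63.2% in replicate 1 and 0% in replicate 2, and the retained-intron transcript Nlrc5-203 took 0% in replicate 1 and 60.6% in replicate 2. By posterior mean the split in replicate 1 was 40.6% for Nlrc5-202 and 21.8% for Nlrc5-203, and retained-intron transcripts together held 32.3% in replicate 1 and 57.4% in replicate 2. The 2 transcripts share 94.0% of the 100-base windows of Nlrc5-202. The authors' interval for Nlrc5-202 in replicate 1 ran from 0.687 to 8.31 TPM, and that for Nlrc5-203 in the same library from 3.94e-05 to 7.06 TPM. The full-length coding transcript Nlrc5-201 had 3.47 and 3.84 TPM in replicates 1 and 2, from 692 and 683 expected counts.

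Among the heavy chains the leading transcript was the same in both libraries. H2-K1-201 held 62.6% and 54.4% of H2-K1 in replicates 1 and 2, and H2-K1-205, also coding, 28.5% and 30.0%. The retained-intron transcript H2-K1-203 had 0.32 and 14.7 TPM in the same order. H2-D1-202 held 93.6% and 82.5% of H2-D1. The short coding transcript H2-D1-203 beside it had 4.24 and 21.4 TPM. H2-T23-201 held 83.7% and 87.4% of H2-T23, and Tapbp-201 held 89.9% and 86.7% of Tapbp.

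Counted on coding transcripts alone, an alternative chosen after seeing the data, all 8 genes still reached 1 TPM in both libraries and Nlrc5 became over 2-fold apart. Its coding level was 11.7 and 4.10 TPM in replicates 1 and 2, through Nlrc5-202. Tap2 was then the lowest of the 8, with a coding mean of 3.23 ± 1.09 TPM (SD, n = 2).

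Promoter windows from RefSeq (GRCm38.p6), 250 bases before to 50 after the annotated start, were given for 6 of the 8 genes, not for Tap2 or Nlrc5. The upstream bases of H2-K1 and B2m are printed because each holds 3 or more of the 5 searched motifs and lies outside annotated untranslated regions. Capitals mark exact matches on either strand to CCAAT (the NF-Y box) and to TGACG (the core of cyclic AMP response elements, CRE). They also mark exact matches to TTTCNNTTT (a part of interferon-stimulated response elements) and to the NF-kappa-B consensus.
H2-K1, chr17:34000348-34000597, minus strand: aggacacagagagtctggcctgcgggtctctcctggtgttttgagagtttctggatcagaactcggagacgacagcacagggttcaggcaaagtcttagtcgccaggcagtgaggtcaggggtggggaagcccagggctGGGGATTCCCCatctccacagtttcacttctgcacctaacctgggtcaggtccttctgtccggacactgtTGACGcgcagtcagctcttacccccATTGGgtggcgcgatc
B2m, chr2:122147437-122147685, plus strand: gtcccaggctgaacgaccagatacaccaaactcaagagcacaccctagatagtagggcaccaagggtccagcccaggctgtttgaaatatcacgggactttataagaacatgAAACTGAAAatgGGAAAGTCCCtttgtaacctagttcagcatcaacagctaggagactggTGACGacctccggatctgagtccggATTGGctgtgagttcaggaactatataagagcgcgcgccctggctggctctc

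CCAAT was found in the windows of 6 of 6 genes, against 37.4% of 32817 windows of all genes. TGACG was found in 4 of 6 (H2-K1, H2-D1, B2m and Tap1), against 20.8%, and the NF-kappa-B consensus in 3 of 6 (H2-K1, H2-D1 and B2m), against 4.50%. TTTCNNTTT was found in 2 of 6 (H2-T23 and B2m), against 10.5%, and the gamma-activated site TTCNNNGAA in 0 of 6, against 8.29%. Exact strings alone were searched, so an interferon element that departs from its string was not counted. A window without a match, such as that of H2-K1 or H2-D1, may still hold such an element. No matches of different motifs overlapped. For H2-D1, Tap1, Tapbp and H2-T23, annotated untranslated regions of any gene covered 250, 246, 244 and 154 of the 250 upstream bases. The counts are thus of windows around RefSeq starts, not of sequence outside transcripts. The run of capitals that opens the marked part of H2-K1 is palindromic apart from its central base. It matches the NF-kappa-B consensus in overlapping registers on both strands.

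H2-K1 and H2-D1 share most of their upstream sequence: 191 bases aligned with 90.1% identity, with the same motifs in the same order. For H2-K1 the alignment took the bases before the more downstream of its 2 RefSeq starts, chr17:34000334-34000583. That window overlaps the printed one but is shifted from it. The NF-kappa-B match, TGACG and the first CCAAT began 111, 41 and 16 bases before the upstream start of the 2 that RefSeq gives for H2-K1, and 171, 101 and 76 bases before that of H2-D1. The RefSeq start of H2-D1 lies inside the first exon of H2-D1-202, so its distances depend on which start is taken. In B2m the NF-kappa-B, TGACG and CCAAT matches began 126, 78 and 53 bases before the start, again in that order, with the TTTCNNTTT match 138 bases before it.

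**Figure D4:**
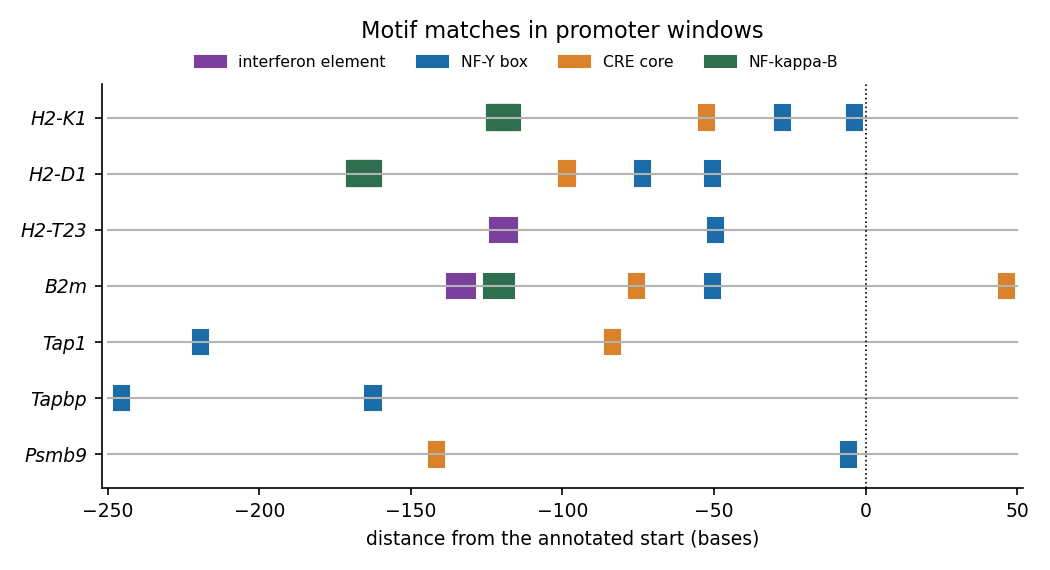
Exact motif matches in the promoter windows of 6 class I presentation genes and Psmb9, by distance from the RefSeq start in bases. For H2-K1 the more downstream of 2 starts is taken. Boxes are matches on either strand, coloured by motif, and elements that depart from the searched strings are not drawn. H2-K1, H2-D1 and B2m each carry an NF-kappa-B match, then the CRE core, then the NF-Y box, while Tapbp carries the NF-Y box alone.

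Tap1 shares its promoter region with Psmb9, which encodes an inducible proteasome subunit and is transcribed in the opposite direction. Their RefSeq starts lie 226 bases apart, and the 300-base windows overlap by 275 bases, so a motif in one is mostly a motif in the other. Psmb9 had 69.6 and 69.4 TPM in replicates 1 and 2, above Tap1 3.20 times and 2.38 times in the same order. The annotated genes overlap over 212 bases on opposite strands.

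The genes that feed and assist the 8 were all expressed, where 45.6% of all protein-coding genes were at 1 TPM or more in both libraries. Of 10 loading and trimming partners 10 were at 1 TPM or more in both libraries, with a median of 83.9 TPM, led by Calr (calreticulin, 714 ± 102 TPM, SD, n = 2), Hspa5 (BiP, 276 ± 12.6 TPM) and Canx (calnexin, 195 ± 1.93 TPM), chaperones of the endoplasmic reticulum that also fold many other proteins. Of 14 genes of cytosolic peptide supply 14 were, with a median of 75.8 TPM, led by the proteasome activator subunits Psme1 (270 ± 19.4 TPM) and Psme2 (164 ± 6.57 TPM) and the inducible proteasome subunit Psmb8 (161 ± 13.2 TPM). The inducible subunits Psmb8, Psmb9 and Psmb10 summed to 0.774 of their constitutive counterparts Psmb5, Psmb6 and Psmb7 in replicate 1 and to 0.921 in replicate 2.

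Other class I and class I-like genes were lower. Of 21 such genes, 10 were at 1 TPM or more in both libraries, with a median of 1.61 TPM. That count is near the share of 45.6% of all protein-coding genes. The highest were H2-T22 at 16.8 ± 0.552 TPM (SD, n = 2), Cd1d1, which presents lipids, at 15.3 ± 4.22 TPM, and H2-Q7 at 14.6 ± 1.54 TPM. H2-T22 and H2-Q7 share 14.8% and 17.7% of their 100-base windows with other genes, so their values are uncertain. H2-Q1, H2-T3, H2-M2, H2-M5 and H60b had 0 counts in each library, a floor of 3 counts that equals 0.0741 CPM in replicate 1 and 0.0841 CPM in replicate 2. The 3 heavy chains of the 8 summed to 6.19 times the 13 other H2 class I genes in replicate 1 and 7.04 times in replicate 2. On coding transcripts these ratios were 9.35 and 9.43. Of the 11 genes with a mean of 1 TPM or more, 2 were over 2-fold apart in TPM, against 11.8% of such protein-coding genes. These were Hfe, an iron regulator, at 10.2 and 4.75 TPM in replicates 1 and 2, and H2-T24 at 0.99 and 2.23 TPM. In CPM their ratios of replicate 2 to replicate 1 were 0.531 and 1.79, neither over 2-fold.

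**Figure D5:**
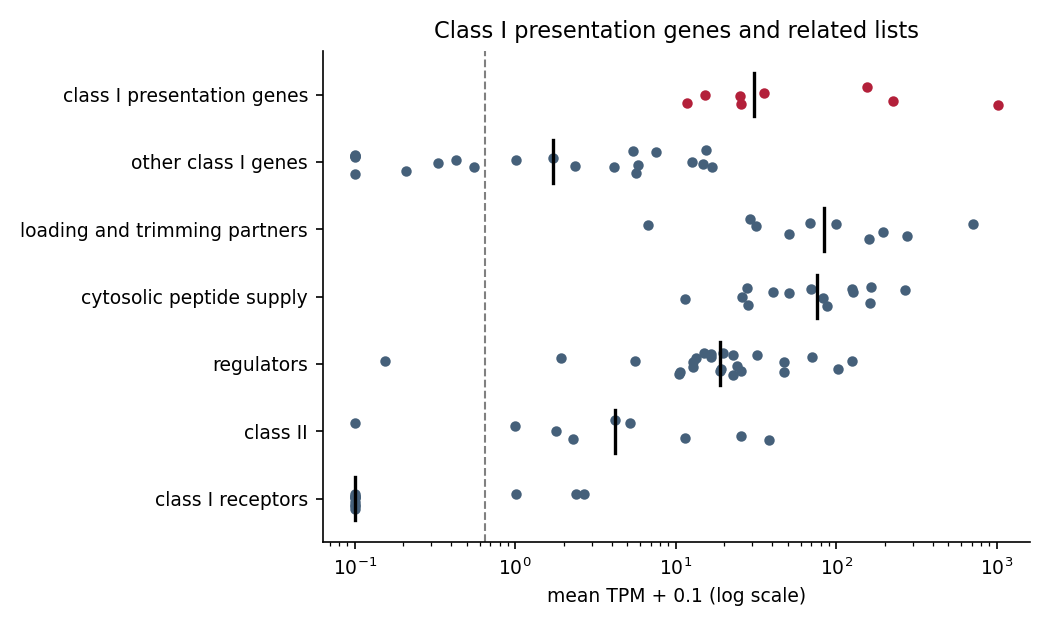
Mean TPM of 2 libraries plus 0.1 (log axis) for the 8 class I presentation genes (red) and related gene lists (blue); each point is a gene, the black bar the list median, and the dashed line the median of all protein-coding genes, 0.55 TPM. Loading partners and peptide supply have medians of 83.9 and 75.8 TPM, and class I receptors a median of 0 TPM.

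Of 24 regulators and interferon signalling genes, 23 were at 1 TPM or more in both libraries, against 45.6% of all protein-coding genes. The median of the 24 was 18.9 TPM. The highest were Ifngr1, a chain of the interferon gamma receptor, at 125 ± 2.00 TPM (SD, n = 2), Irf8, a transcription factor of the monocyte lineage, at 103 ± 0.820 TPM, and Ifnar2, a chain of the type I interferon receptor, at 70.4 ± 11.1 TPM. Ciita, the class II counterpart of Nlrc5, was the exception, with 17 expected counts in replicate 1 and 0 in replicate 2. Rfxap, a subunit of the RFX factor that works with both transactivators, had 21.7 and 4.82 TPM in replicates 1 and 2. Nfyc, a subunit of the factor that binds CCAAT, was at 11.9 and 25.7 TPM in the same order. Over 2-fold apart in TPM were these 2 of the 23 with a mean of 1 TPM or more, against 11.8% of such protein-coding genes. In CPM the ratio of replicate 2 to replicate 1 was 0.471 for Rfxap and 1.90 for Nfyc, so that Nfyc was not over 2-fold.

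Class II genes, which present peptides to CD4 T cells, were lower than the classical class I genes. Of 9, 7 were at 1 TPM or more in both libraries, against 45.6% of all protein-coding genes. The median of the 9 was 4.08 TPM. Highest were the peptide exchange factor genes H2-DMa (38.0 ± 0.877 TPM, SD, n = 2) and H2-DMb1 (25.3 ± 1.40 TPM), then H2-Ab1 (11.3 ± 5.55 TPM). H2-Eb1 had 0 counts in both libraries. The 3 class I heavy chains summed to 19.2 times H2-Aa, H2-Ab1 and H2-Eb1 in replicate 1 and 53.0 times in replicate 2, and on coding transcripts to 30.6 and 62.7 times. H2-Aa was at 3.27 and 1.14 TPM, H2-Ab1 at 15.3 and 7.41 TPM and H2-Oa at 7.16 and 3.07 TPM in replicates 1 and 2, each over 2-fold lower in replicate 2. Over 2-fold apart were thus 3 of the 7 with a mean of 1 TPM or more, against 11.8% of such protein-coding genes. In CPM the ratios of replicate 2 to replicate 1 were 0.515, 0.606 and 0.437, of which H2-Oa alone was over 2-fold. H2-DMa, H2-DMb1 and H2-DMb2 had TPM ratios of 1.03, 1.08 and 1.19, slightly higher in replicate 2.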

How the data were processed

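The authors deposited a gene table and a transcript table per library, with mm10 and annotation M4 named in their accompanying text files. Aligner and quantifier: not given in the sources used here. Expected counts are the authors' estimated read counts. The deposited TPM and FPKM are divided by effective length and scaled to the library, and TPM sums over all rows, spike-ins included. Percent values, as deposited for each transcript, are shares of a gene's TPM. The interval bounds, used as a score the authors deposited, have no stated level, and for 3 of the 8 genes the deposited TPM lay above the bound in both libraries.

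Symbols, biotypes and spans came from GENCODE M21 (42462 of 69691 rows matched), promoters from RefSeq. A mean is over 2 libraries with its SD; ratios on the log2 scale add 1 TPM, which understates low genes. CPM ratios carry exact Clopper-Pearson intervals; these and the floor of 3 counts cover counting error only. edgeR 4.0.16 in R 4.3.3 estimated dispersion on expected counts rounded to whole numbers (TMM, 10 counts in at least 1 library, intercept alone, 13930 rows), with no gene tested; DESeq2 1.42.0 was an alternative. This step was also run on simulated data with a wider spread than was found here, which gives no measure of its error at the spread found. Other steps used Python 3.11.15, numpy 2.4.6, pandas 2.3.3, scipy 1.17.1, matplotlib 3.10.9 and Biopython 1.88. Sequences were aligned locally with gaps scored -5 to open and -1 to extend.

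Named were the 8 genes, the 3 highest of each related list and, of the loading, supply and regulator lists, those under 1 TPM in either library. Other genes named stand for a count of 5 or fewer, a sum, a ratio or an overlap, chosen after their values were seen. The genes and lists were chosen with earlier results of these data known. No likeness between genes was measured, since 2 libraries of 1 group give no pattern across conditions. Alternatives were posterior mean TPM, rescaled TPM, FPKM, other scalings, pseudocounts, level and count filters, each library left out and, chosen after seeing the data, coding transcripts alone, CPM ratios and posterior mean transcript shares.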

Additional observations from a re-analysis of the deposited data

How the results depend on the processing

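The count of genes that reached 1 TPM in both libraries stayed at 8 with levels of 0.1, 5 and 10 TPM, posterior mean TPM, rescaled TPM, coding transcripts and either library alone. The count over 2-fold apart stayed at 0 except on coding transcripts, where it was 1 (Nlrc5). The median TPM was 65.4 when TPM was rescaled to nuclear protein-coding genes, 22.2 in FPKM, 26.4 on coding transcripts and 25.5 without the heavy chains, against 30.4; the first 2 follow from the change of scale and the last 2 from the transcripts or genes left out. It ran from 28.3 to 33.4 with a library left out, which leaves no ratio. The median log2 ratio ran from 0.16 (DESeq2-scaled counts) to 0.25 (pseudocount 0.1 TPM), and 6 of 8 genes were higher in replicate 2 under TMM and DESeq2 scaling as well. The spread was 0.164 by DESeq2, 0.143 without a filter and 0.144 at 100 counts or more. On coding transcripts the ratios of Tap1 to Tap2 and of Tapbp to both, and those of the heavy chains to other class I and class II genes, moved by over 1.5 times in at least 1 library, as given beside them. The early progenitor marker Procr had a ratio of replicate 2 to replicate 1 of 0.266 in TPM and 1.14 in CPM, from 16 expected counts in each library. Leading transcripts were the same in 6 of 8 genes by posterior mean. No paired analysis was possible because there is 1 group. With 2 libraries, differences between them have no replicate of their own.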

Other observations

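Of 14 genes of receptors that read class I molecules, the myeloid receptor genes Lilrb4a and Lilrb3 had no matching symbol and are not analysed here. Of the other 12, 1 was at 1 TPM or more in both libraries, against 45.6% of all protein-coding genes. In both libraries 9 had 0 counts, among them the T cell coreceptor genes Cd8a and Cd8b1 and the NKG2 genes Klrc1 and Klrc2. Klrk1, which encodes the activating receptor NKG2D, had 2.09 and 3.11 TPM in replicates 1 and 2. Klrd1, which encodes CD94, the partner of NKG2 in reading Qa-1, had 58 expected counts in replicate 1 and 0 in replicate 2. Pirb, an inhibitory class I receptor of myeloid cells, had 167.29 and 0 in the same order, or 1.82 and 0 TPM. The count of Pirb in replicate 1 is not a whole number, as when reads are split between genes, so it is uncertain.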
